A study of Mus musculus with 18 samples.

Results

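Quadriceps muscle of young mice carrying a Cre transgene was set against quadriceps of young mice carrying floxed Pofut1 alleles, 3 libraries each, so 6 of the 18 libraries sequenced. The Cre mice (libraries 61, 93 and 94) carried the skeletal alpha actin Cre transgene on wild-type Pofut1. The floxed mice (libraries 32, 57 and 92) were homozygous for the Pofut1 flox allele, with no Cre named in their label. All 6 were 2 months old, the strain is given as C57/Bl6, and no drug or other treatment is named. The members were chosen by these labels alone. The remaining 12 libraries are 3 young knockouts, which carry the Cre transgene and both floxed alleles, and the same 3 genotypes at 17 months. Both young groups served as controls for the knockout, and Pofut1 is intact in each. By their labels the groups differ in the transgene and in the floxed allele. The chromosome around that allele and the rest of the genetic background may also differ. These cannot be told apart in this comparison. The labels give every library its own number and do not say how the mice were bred or whether they were littermates, so the p-values measure the spread between these libraries.

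Cre recombinase cuts DNA at loxP sites, and a floxed allele carries such sites around an exon so that the exon is lost where Cre is made. The skeletal alpha actin promoter drives Cre in muscle fibres, not in the satellite cells, vessels, nerves or fat between them. Pofut1 adds O-fucose to EGF-like repeats of Notch receptors, which is needed for ligands to activate them. Notch signals keep muscle satellite cells quiescent. A floxed allele made in cells of one strain and crossed onto another usually keeps a stretch of donor chromosome around the target gene.

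Libraries held 26613963, 27518147 and 26846337 counts in Cre muscle, and 26787362, 28430891 and 29703247 in floxed muscle. Levels are given as CPM, counts divided by the scaled library total, and differences are log2 of Cre over floxed with their standard error (SE). Fibre genes dominated: Ttn, the giant spring protein titin, took 16.2 to 22% of the counts, and Ckm, muscle creatine kinase, stood at 17066 to 21955 CPM. The liver gene Alb reached at most 0.619 CPM and the atrial myosin Myh6 ran from 1.37 to 21.7 CPM. Xist, the RNA of the inactive X chromosome, was at 278 CPM in Cre library 94 and 285 CPM in floxed library 32 and at most 1.05 CPM in the other 4, so each group held 1 library of the female pattern and 2 of the male pattern. Spearman correlations across genes were 0.979 to 0.982 within Cre muscle, 0.978 to 0.985 within floxed muscle and 0.976 to 0.987 between the groups. A total of 3 libraries stand apart in cell-type genes, floxed library 92 in fat genes, Cre library 93 in proliferation and macrophage genes, and Cre library 61 in respiratory chain genes; lists that rest on them are given with and without them.

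Upstream sequences of 4 genes are shown because the results return to them: Acta1, whose promoter names the Cre driver, Chrna1 and Chrng, which were both higher in Cre muscle, and the noncoding gene LOC102640133, which had the smallest p-value. Each is the 250 bases before the gene's start, 5′ to 3′ on the gene's strand, from RefSeq on GRCm38.p6. Capitals mark the CArG box bound by serum response factor, the motif TATAAA, and CAGCTG, a form of the E-box bound by MyoD and its relatives, searched on both strands. The Acta1 sequence is that of the mouse gene; which promoter fragment the transgene carries is not given in the sources used here.

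Acta1 (chr8:123894776-123895025, minus strand): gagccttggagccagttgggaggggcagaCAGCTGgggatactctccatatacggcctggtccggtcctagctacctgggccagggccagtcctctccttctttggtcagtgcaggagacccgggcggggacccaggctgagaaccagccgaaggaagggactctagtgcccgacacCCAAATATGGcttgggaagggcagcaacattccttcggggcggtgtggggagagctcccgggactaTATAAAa
Chrna1 (chr2:73580339-73580588, minus strand): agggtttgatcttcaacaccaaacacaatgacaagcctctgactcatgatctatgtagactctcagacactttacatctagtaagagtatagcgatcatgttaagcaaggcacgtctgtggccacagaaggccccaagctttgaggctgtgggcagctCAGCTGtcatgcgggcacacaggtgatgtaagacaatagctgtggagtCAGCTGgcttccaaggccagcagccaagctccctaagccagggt
Chrng (chr1:87205561-87205810, plus strand): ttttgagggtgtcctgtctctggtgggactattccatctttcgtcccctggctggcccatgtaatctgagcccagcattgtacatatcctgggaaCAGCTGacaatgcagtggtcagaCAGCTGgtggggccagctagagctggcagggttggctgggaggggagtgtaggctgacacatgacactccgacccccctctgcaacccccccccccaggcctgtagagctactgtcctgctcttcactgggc
LOC102640133 (chr15:89767365-89767614, plus strand): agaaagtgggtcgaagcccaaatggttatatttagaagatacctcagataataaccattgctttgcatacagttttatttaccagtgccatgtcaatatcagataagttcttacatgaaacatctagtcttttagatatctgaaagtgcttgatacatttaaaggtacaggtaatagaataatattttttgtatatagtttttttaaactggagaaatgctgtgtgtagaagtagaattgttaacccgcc

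Acta1 held 1 CArG box, 1 CAGCTG and 1 TATAAA. Chrna1 and Chrng held 2 CAGCTG each. Other genes with higher values in Cre muscle were searched too. Tnnt2 held 2 CAGCTG before start site 1 and none before start site 2. Myh3, Ahcy, Cda, Maats1 and Ankrd36 held no CAGCTG. None of the 3 motifs was in the LOC102640133 window. Among 32851 upstream windows of this length, 13% held CAGCTG, 1.47% held a CArG box and 12.4% held TATAAA. These matches describe letters in a window and not binding.

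The genes that define the groups did not differ between them beyond the spread of the libraries. Pofut1 (GRCm38, chr2:153241532-153271029) was at 13.8, 16.2 and 19 CPM in Cre muscle and at 19.6, 17.8 and 17.0 CPM in floxed muscle. The groups overlapped, with a log2 difference of -0.15 (SE 0.15) and an adjusted p of 1 by edgeR's quasi-likelihood test. Young knockout muscle had 9.61, 9.30 and 9.60 CPM of Pofut1, below all 6 control libraries. Acta1, skeletal alpha actin itself, was at 13093, 18295 and 16611 CPM in Cre muscle and at 15343, 15426 and 15977 CPM in floxed muscle, a log2 difference of 0.04 (SE 0.13, adjusted p of 1 by edgeR). The 3 floxed values lay inside the range of the Cre values. The receptor Notch1 was at 11.7, 7.24 and 9.44 CPM in Cre muscle and at 11.1, 13.1 and 10.7 CPM in floxed muscle. Notch2 and Notch3 differed by -0.15 (SE 0.19) and -0.13 (SE 0.32) on the log2 scale. The Notch target Hes1 differed by 0.19 (SE 0.26), Hey1 by -0.05 (SE 0.27) and Heyl by 0.01 (SE 0.33). The satellite cell factor Pax7 differed by 0.01 (SE 0.35). None of the 17 measured receptors, ligands and glycosyltransferases of the pathway and none of its 21 targets and nuclear partners passed the test. Their median log2 differences were -0.13 and -0.04, with 14 of the 17 and 12 of the 21 negative, while 49.1% of all genes were positive. At 17 months 10 of the 17 and 14 of the 21 were positive, with medians of 0.05 and 0.11.

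Across the whole table few genes passed the test between the young control groups. With 3 libraries a group, a small count of calls does not by itself show that the groups are alike. Of 15224 genes tested, 2 had an adjusted p under 0.05 (0.0131%), both lower in Cre muscle, and none was higher. This was edgeR's quasi-likelihood test over 6 group means in all 18 libraries, with Benjamini-Hochberg adjustment, and DESeq2 called 19. An unadjusted p under 0.05 was reached by 664 genes (4.36%), 342 with higher (2.25%) and 322 with lower (2.12%) values in Cre muscle. Every Cre library lay above or below every floxed library for 1403 genes (9.22%), 679 above (4.46%) and 724 below (4.76%). Counting error matched the biological variation of 20.1% at 0.850 to 0.924 CPM in these libraries, and 2301 genes had a mean below that, where a difference is harder to see.

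The first of the genes called was LOC102640133, a long noncoding RNA gene (chr15:89767615-89769242) that RefSeq lists as Gm19378. It was at 1.71, 2.33 and 2.35 CPM in Cre muscle and at 11.9, 13.2 and 13 CPM in floxed muscle. That is 5.95-fold lower in Cre muscle, a log2 difference of -2.57 (SE 0.15, adjusted p = 1.24e-07 by edgeR), and the counts behind it were 180 and 1077. At 17 months, in other animals, it was at 2.40, 2.12 and 2.69 CPM in Cre muscle and at 14.8, 15.8 and 17.7 CPM in floxed muscle, a log2 difference of -2.75 (SE 0.15, adjusted p = 4.26e-08 by edgeR). All 6 Cre libraries thus lay below all 6 floxed libraries, and the differences at the 2 ages were 0.18 apart on the log2 scale (SE 0.20). Young knockout muscle, which carries the same transgene as Cre muscle, had 10.4, 10.3 and 12.2 CPM and so stood near the floxed level. The call held under all 18 alternative settings, with an adjusted p of at most 0.00539. The nearest measured genes did not pass the test. Rabl2, a Rab-like GTPase gene 176 kb away, differed by 0.34 (SE 0.24) and Acr, 189 kb away, by -0.10 (SE 0.66). Shank3, a synaptic scaffold gene 207 kb away, differed by -0.19 (SE 0.33) and Arsa, 290 kb away, by -0.45 (SE 0.22).

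The other was Cd28 (chr1:60746388-60773359), the co-stimulatory receptor of T cells. It was at 0.105, 0.240 and 0.0747 CPM in Cre muscle and at 1.22, 0.756 and 0.998 CPM in floxed muscle, from 12 and 84 counts in all. The log2 difference was -2.77 (SE 0.42, adjusted p = 0.0489 by edgeR). Every Cre library was below every floxed library, and the same was so at 17 months, where Cre muscle had 0.0786, 0.125 and 0.0767 CPM and floxed muscle 0.662, 0.574 and 0.425 CPM. Young knockout muscle had 0.114, 0.0697 and 0.113 CPM, like Cre muscle, so the knockouts stood with Cre muscle for Cd28 and with floxed muscle for LOC102640133. In the edgeR tests of young knockouts 1 gene was called against floxed muscle (0.00657%), which was Cd28, and 2 against Cre muscle (0.0131%), LOC102640133 and Phlda3; these share the control libraries used here. Of 26 T and NK cell markers 4 were measured at all, Cd28 among them, and no other was called. Of the 4, 1 had a positive and 3 had negative log2 differences, and at 17 months 2 were positive. Cd3g, a chain of the T cell receptor complex, was at 0.0350, 0.137 and 0 CPM in Cre muscle and 0.358, 0.0360 and 0.172 CPM in floxed muscle. So few markers at such low counts do not give the number of T cells. In bulk muscle, fewer cells of a type and less RNA per cell cannot be told apart. The 2-month call was near the threshold and held in 3 of 17 alternatives, with adjusted p values up to 0.391.

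**Figure D1:**
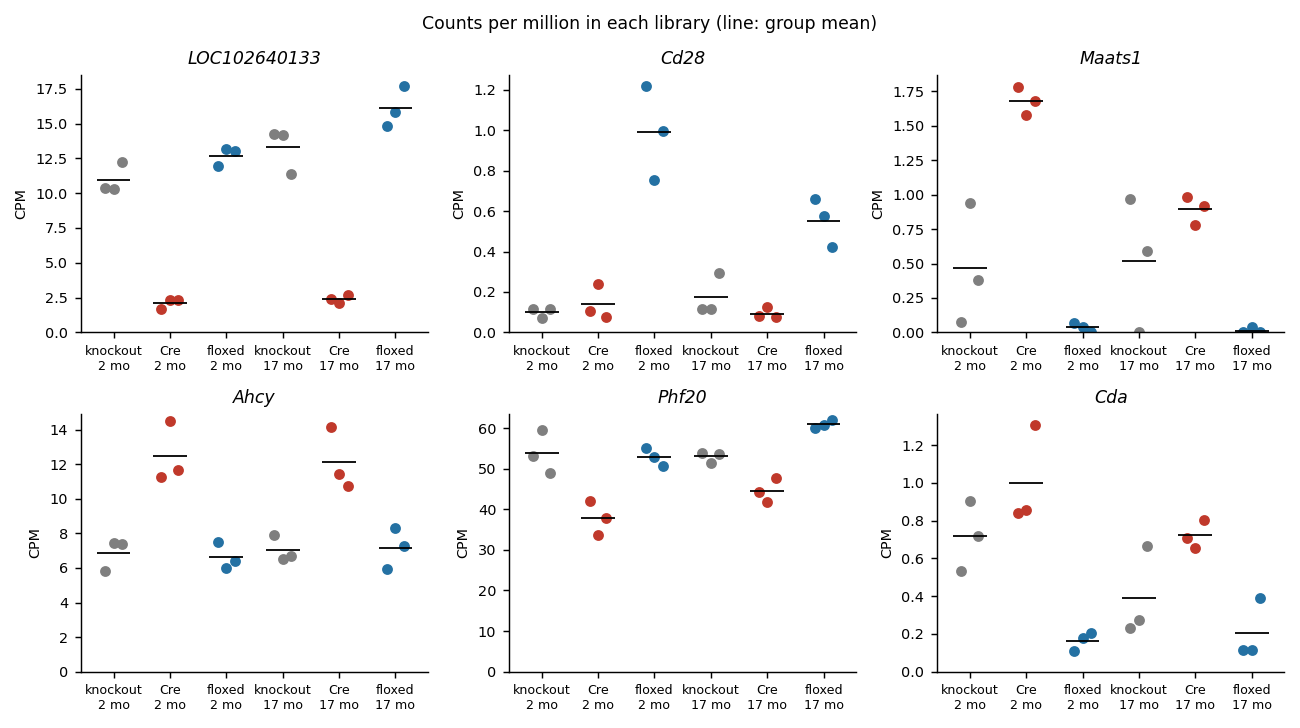
CPM of 6 genes in each of the 18 libraries (points), with group means (lines), for knockout, Cre and floxed muscle at 2 and at 17 months. LOC102640133 is low in Cre muscle at both ages and high in knockout and floxed muscle, while Cd28 is high in floxed muscle; Ahcy is at 11.3 to 14.5 CPM in young Cre muscle and at 6.01 to 7.49 CPM in young floxed muscle.

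Next came 12 genes with higher and 12 with lower values in Cre muscle, taken by the smallest unadjusted p among 480 and 546 genes whose groups did not overlap and whose mean reached 1 CPM in the higher group. None passed the adjusted threshold in edgeR's test, while DESeq2 called 13 of the 24 and edgeR on the 12 control libraries alone called Maats1 (adjusted p = 0.00139), and their choice used these values, so they are described without weight on their separation. Higher in Cre muscle were Ahcy, Cda, Maats1, Ehd4, Dmp1, Uqcc1, Tspan13, Trp53inp2, Ndrg3, Tnip1, Mx2 and Traf2. Lower were Phf20, Zhx3, Ctnna3, Tapt1, Ccdc3, Cbfb, Eps8l1, Egf, Zfp9, Dennd6a, Arhgap26 and Stk26. Chromosome 2, which carries Pofut1, held 6 of the 12 higher and 3 of the 12 lower genes. It carries 1164 of the 14722 placed genes and 19 of the 119 placed genes with an unadjusted p under 0.01. Among the leading genes on it, Ehd4, Traf2 and Ccdc3 lie 33.2, 127.7 and 148.1 Mb from Pofut1. At 17 months the difference had the same sign for 12 of the 12 higher and 11 of the 12 lower genes, the exception being Eps8l1.

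Ahcy, which encodes the hydrolase that clears S-adenosylhomocysteine after methyl transfer, led the higher genes. It was at 11.3, 14.5 and 11.6 CPM in Cre muscle and at 7.49, 6.01 and 6.40 CPM in floxed muscle, a log2 difference of 0.91 (SE 0.16, adjusted p = 0.119 by edgeR). Maats1 (also Cfap91), a cilium and flagellum gene, was at 1.78, 1.58 and 1.68 CPM in Cre muscle, against 3 counts in all 3 floxed libraries together. Ankrd36, an ankyrin repeat gene, was under 1 CPM: it had 46 counts in Cre muscle and 0 in floxed muscle, at least 15.4-fold higher against a floor of 3 counts over the group. Both genes were near 0 in old floxed muscle too, with 1 count each over 3 libraries, against 74 counts of Maats1 and 36 of Ankrd36 in old Cre muscle. Among young knockouts Maats1 varied, at 0.0760, 0.941 and 0.378 CPM.

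Cda, cytidine deaminase of pyrimidine salvage, was at 0.839, 0.858 and 1.31 CPM in Cre muscle and at 0.108, 0.180 and 0.206 CPM in floxed muscle. Tspan13, a tetraspanin, was at 33.5, 31.7 and 33.0 CPM in Cre muscle and at 20.4, 24.1 and 19 CPM in floxed muscle. Its 3 young knockout values, 31.8, 31.6 and 31.7 CPM, lay at the Cre level. The interferon-induced GTPase gene Mx2 was at 2.45, 2.51 and 2.24 CPM in Cre muscle and at 1.36, 1.51 and 0.826 CPM in floxed muscle, and at 17 months it differed by 0.06 (SE 0.26). Of the 29 interferon genes measured, Mx2 among them, 17 had positive and 12 negative log2 differences at 2 months, with a median of 0.06, and none was called. At 17 months 27 of the 29 were positive with a median of 0.51.

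Phf20, a chromatin reader of a histone acetyltransferase complex, led the lower genes. It was at 42.0, 33.7 and 37.7 CPM in Cre muscle and at 55.0, 52.8 and 50.7 CPM in floxed muscle, a log2 difference of -0.48 (SE 0.09, adjusted p = 0.191 by edgeR). Ctnna3, the alpha-T-catenin of cell junctions, was at 15.3, 13.7 and 13.8 CPM in Cre muscle and at 20.1, 27.1 and 24.1 CPM in floxed muscle. Young knockouts had 14.4, 11.6 and 12.5 CPM of it, at the Cre level. Cbfb, the partner subunit of Runx factors, was at 89.1, 106 and 114 CPM in Cre muscle and at 171, 158 and 174 CPM in floxed muscle. The growth factor gene Egf was at 29.9, 28.8 and 43.3 CPM in Cre muscle and at 66.0, 53.1 and 50.7 CPM in floxed muscle. At 17 months Cbfb ran from 158 to 205 CPM in Cre muscle and from 207 to 262 CPM in floxed muscle, and Egf from 58.0 to 67.1 CPM in Cre muscle and from 67.7 to 84.7 CPM in floxed muscle. Neither overlapped there, as for 925 genes (6.08%) with lower values in old Cre muscle.

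Genes near Pofut1 were frequent among the small p-values. The 10 Mb window of chromosome 2 from 150 to 160 Mb holds Pofut1 and 123 tested genes, of which 8 (6.5%) fell under 0.01 without adjustment, while outside it 0.760% of 14599 placed genes did so. Over all genes 124 (0.815%) had such a p-value. Of 277 windows, 190 held no such gene, and the next by count, on chromosome 6, held 4 among 108 genes. By share, 3 windows of 12 to 25 tested genes stood higher, with 1 or 2 such genes each. At 17 months, in libraries that share no animal with the young ones, the window held 14 of 123 (11.4%), against 2.22% outside it and 2.3% over all genes. The 8 genes lie 0.843 to 3.66 Mb from Pofut1 and went in both directions, 4 higher and 4 lower in Cre muscle. The median log2 difference over all 123 genes of the window was -0.01.

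On one side of Pofut1 stands Sox12, a SoxC transcription factor gene, at 0.280, 0.240 and 0.448 CPM in Cre muscle and 0.681, 0.540 and 0.619 CPM in floxed muscle. At 17 months it was the second gene called, at 0.236, 0.156 and 0.115 CPM in Cre muscle and 0.779, 0.996 and 0.637 CPM in floxed muscle (log2 difference -2.23, SE 0.33, adjusted p = 0.0430 by edgeR). On the other side lie Ahcy and Phf20, given above, and 5 more. Uqcc1, an assembly factor of respiratory complex III, was at 134, 111 and 90.4 CPM in Cre muscle and at 71.5, 74.7 and 76.4 CPM in floxed muscle. Trp53inp2, an autophagy gene, was at 135, 119 and 98.7 CPM in Cre muscle and at 79.2, 79.5 and 66.7 CPM in floxed muscle. Ndrg3, of the NDRG family, was at 41.3, 41.3 and 40.6 CPM in Cre muscle and at 32.6, 30.3 and 30.7 CPM in floxed muscle. These 3 were higher in every Cre library, which their choice as leading genes required. Eif6, which keeps the large ribosomal subunit from joining the small one too early, was at 6.36, 8.93 and 9.03 CPM in Cre muscle and at 9.93, 11.3 and 11.3 CPM in floxed muscle. BC029722, a noncoding gene that overlaps Mmp24, was at 9.06, 9.54 and 8.85 CPM in Cre muscle and at 11.6, 11.7 and 11.5 CPM in floxed muscle. Whether counting used the strand is not given in the sources used here, so reads of overlapping genes may not be separated.

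All 8 kept their sign at 17 months, and 7 of them had an unadjusted p under 0.05 there, as did 10.2% of all genes in either direction. The gene without one was Trp53inp2, with a log2 difference of 0.15 (SE 0.15). Of the other 116 genes with an unadjusted p under 0.01, of which 111 were placed outside the window and the rest not placed, 81 kept their sign and 28 also had a p under 0.05. Over all genes tested 49.5% had the same sign at both ages, and 5.43% had both the same sign and a p under 0.05 at 17 months. Young knockouts, which also carry both floxed alleles, stood nearer to floxed muscle for 7 of the 8, with Sox12 the exception. Ahcy was at 5.85, 7.46 and 7.37 CPM in them and Phf20 at 53.2, 59.5 and 49.0 CPM, both in or near the floxed range. Of those other 116 genes 63 were nearer to floxed and 53 nearer to Cre muscle. These positions share both control groups with the comparison that chose the genes and are a description. The DNA sequence of these animals was not measured, and the part of strain haplotype in the window was not tested.

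**Figure D2:**
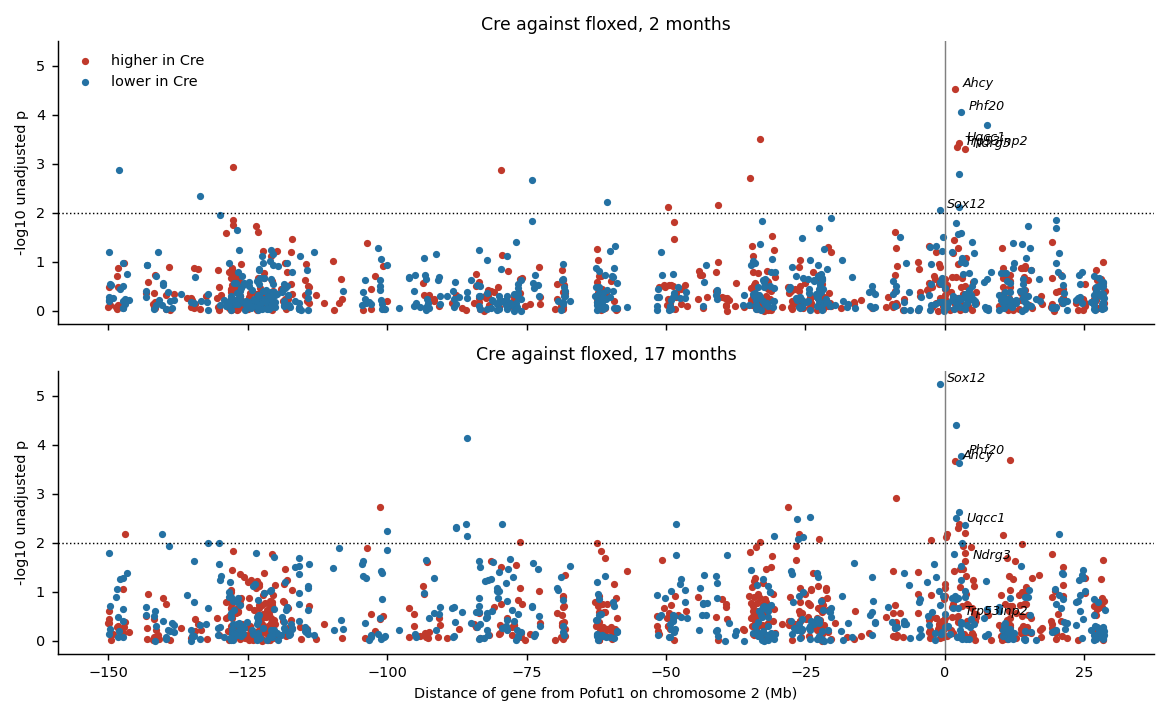
Each tested gene of chromosome 2 by its distance from Pofut1 (Mb) and the -log10 of its unadjusted p for Cre against floxed muscle, at 2 months (top) and 17 months (bottom); red genes are higher and blue genes lower in Cre muscle, and the dotted line marks 0.01. The smallest p-value of the chromosome lies within a few Mb of Pofut1 at both ages (Ahcy at 2 months, Sox12 at 17 months), with small ones of both colours beside it and others far off, such as Ehd4 at 2 months.

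Old muscle gave the same comparison in 6 other libraries. At 17 months 2 genes were called (0.0131%), LOC102640133 and Sox12, both lower in Cre muscle, by edgeR with Benjamini-Hochberg adjustment. Averaged over both ages 20 genes were called (0.131%), 11 higher (0.0723%) and 9 lower (0.0591%) in Cre muscle. This average reuses the young libraries, so it is not independent of the 2-month values. Of the 20, Ahcy, Uqcc1, Phf20, Sox12, Eif6 and Pigu, a subunit of the enzyme that attaches GPI anchors, lie within the window of Pofut1. Others placed outside it included Tspan13, Maats1, Ankrd36, Cda, Ddias, Mfhas1 and Gm16793, which were higher in Cre muscle, and LOC102640133, Cd28, Ctnna3, Kcnab1 and Gm16439, which were lower. LOC105244148, a pseudogene with no position, was also higher. Kcnab1, a potassium channel beta subunit, was at 2.17, 5.29 and 3.73 CPM in young Cre muscle and at 5.66, 7.27 and 10.3 CPM in young floxed muscle. Ddias, an apoptosis suppressor gene, was at 0.804, 1.06 and 0.896 CPM in young Cre muscle and at 0.251, 0.252 and 0.172 CPM in young floxed muscle. Gm16439, a pseudogene, was not uniform: young Cre muscle had 0.420, 0.343 and 0.448 CPM, while young floxed muscle had 5.88, 3.92 and 0.447 CPM. Floxed library 92 thus stood at the Cre level. Names beyond the first 5 in each direction were taken after their values were seen. The Cre difference at 2 months minus that at 17 months passed the test for no gene by edgeR (0%), with 906 genes (5.95%) at an unadjusted p under 0.05. DESeq2 called 1, the small heat shock gene Hspb6.

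**Figure D3:**
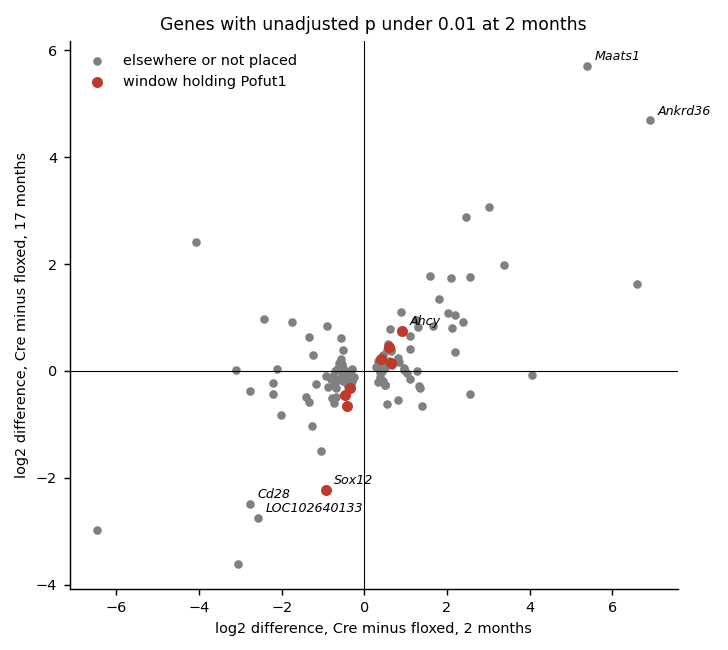
Log2 difference, Cre minus floxed, at 2 months (horizontal) and 17 months (vertical) for the 124 genes with an unadjusted p under 0.01 at 2 months; red points are the 8 genes in the window of Pofut1. All 8 red points lie in the quadrants of equal sign, as do 81 of the other 116 (grey, elsewhere or not placed).

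Among gene groups, several immature fibre genes were separated between the groups without a call. Of 16 measured genes of embryonic and regenerating fibres 15 had positive log2 differences and 1 a negative one, with a median of 0.62. Over all genes 49.1% were positive and the median was 0.00. Chrna1, the alpha subunit of the acetylcholine receptor, was at 16.9, 24.4 and 27.1 CPM in Cre muscle and at 11.3, 9.86 and 10.9 CPM in floxed muscle, a log2 difference of 1.09 (SE 0.28, adjusted p = 0.636 by edgeR). Chrng, its fetal gamma subunit, was at 0.490, 0.687 and 0.373 CPM in Cre muscle and at 0.143, 0.0720 and 0 CPM in floxed muscle. Tnnt2, the troponin T of heart and fetal muscle, was at 4.44, 5.77 and 6.20 CPM in Cre muscle and at 1.97, 1.33 and 1.45 CPM in floxed muscle. Embryonic myosin Myh3 was at 23, 21 and 22.2 CPM in Cre muscle and at 9.998, 4.17 and 3.72 CPM in floxed muscle. In each of the 4, every Cre library exceeded every floxed library, which held for 6 of the 16 members and for 4.46% of all genes. The summed level of the list overlapped, at 1308, 2087 and 2741 CPM in Cre muscle and 3195, 1165 and 1171 CPM in floxed muscle. At 17 months 12 of the 16 were positive with a median of 0.51, and 6 were separated. These included the same 4 genes. Over all genes the groups were separated at that age for 1086 genes (7.13%) with higher values in old Cre muscle and 2011 (13.2%) in either direction. Myh3 was at 25.7, 19.3 and 16.5 CPM in Cre muscle and 9.58, 8.12 and 6.90 CPM in floxed muscle.

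Young knockouts spread over both ranges, with Myh3 at 41.7, 17.6 and 5.82 CPM. In a fit of the 12 control libraries alone Tnnt2 was called, with an adjusted p of 0.00408 by edgeR. Other members overlapped between the groups. The regeneration factor Myog was at 3.15, 4.46 and 4.85 CPM in Cre muscle and 4.23, 3.06 and 3.85 CPM in floxed muscle. The imprinted RNA H19 was at 564, 999.3 and 1790 CPM in Cre muscle and 2338, 462 and 382 CPM in floxed muscle. The list's median was 0.23 without Cre library 94, with 11 of 16 members positive, and 1.12 without floxed library 32. Each of these was its group's only library of the female Xist pattern, so without it the groups were unlike in that pattern. The part of sex in this list was not tested. The denervation and neuromuscular junction list, which includes Chrna1 and Chrng, had 11 of 20 members positive and a median of 0.09. Rapsn, which anchors the receptor, differed by 0.22 (SE 0.12) and Musk, its organising kinase, by -0.10 (SE 0.38).

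**Figure D4:**
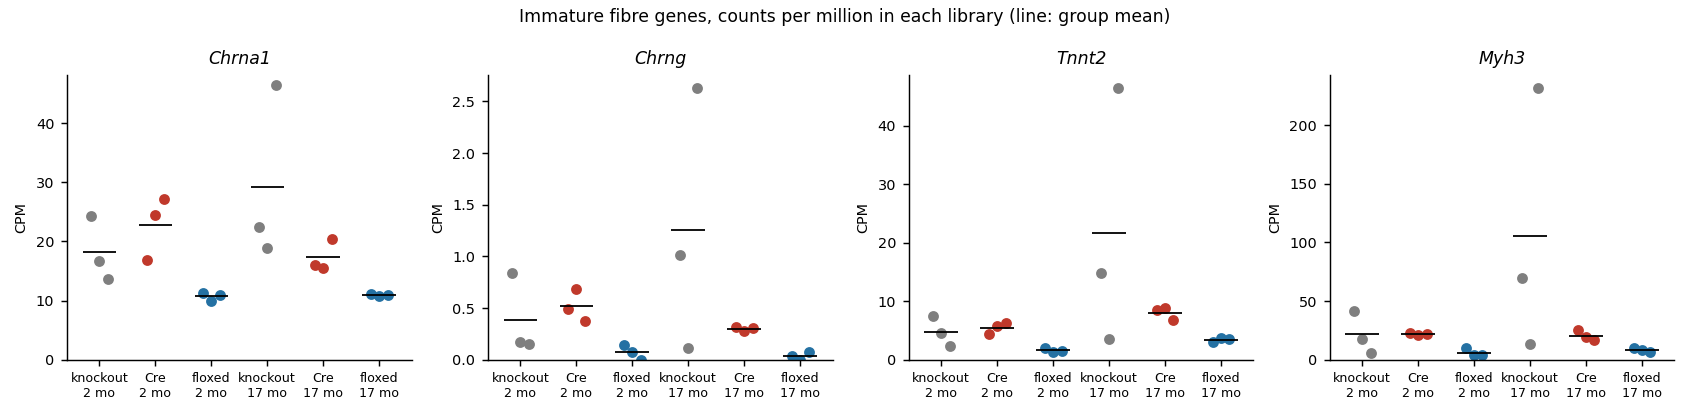
CPM of Chrna1, Chrng, Tnnt2 and Myh3 in each library (points), with group means (lines), for knockout, Cre and floxed muscle at 2 and at 17 months. Cre muscle lies above floxed muscle in all 4 at both ages, and knockout libraries spread widely.

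Of 29 measured genes of the p53 and DNA damage list, 20 had positive log2 differences and the median was 0.12, with none called. The list's summed level was 2333, 2647 and 2386 CPM in Cre muscle and 1972, 1879 and 1951 CPM in floxed muscle, without overlap. Of 36 gene lists, 5 had sums that did not overlap, 2 above and 3 below in Cre muscle. Among all single genes 9.22% did not overlap. Every Cre library exceeded every floxed library for 5 of the 29 members and for 4.46% of all genes. Cyclin G1 (Ccng1), a p53 target, made up the bulk of it, at 1709, 1951 and 1694 CPM in Cre muscle and 1343, 1259 and 1301 CPM in floxed muscle. Eda2r, a TNF receptor family member and p53 target, was at 29.8, 33.2 and 42.7 CPM in Cre muscle and at 20.5, 20.5 and 18.9 CPM in floxed muscle. Phlda3, a p53-induced Akt inhibitor, was at 59.7, 52.4 and 45.0 CPM in Cre muscle and at 20.6, 39.3 and 37.5 CPM in floxed muscle. Young knockouts had 8.81, 9.30 and 12.6 CPM of Phlda3, below both. The classic targets Cdkn1a and Mdm2 overlapped between the groups, with log2 differences of 0.29 (SE 0.60) and 0.12 (SE 0.10). At 17 months Eda2r and Ccng1 had negative differences, -0.54 (SE 0.26) and -0.19 (SE 0.15), and 15 of the 29 were positive. The median at 2 months fell to 0.07 without floxed library 92.

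Sarcomere genes and fast fibre genes were alike. Of 36 sarcomere genes 22 had positive and 14 negative differences, with a median of 0.03, and fast glycolytic fibre genes had a median of -0.02. Slow fibre genes varied within each group: slow myosin Myh7 was at 336, 5.12 and 122 CPM in Cre muscle and at 556, 141 and 6.33 CPM in floxed muscle. Of 14 slow fibre genes 4 had positive differences at 2 months, with a median of -0.19. At 17 months none of the 14 was positive and the median was -1.65. Dystrophin, Dmd, was below in every Cre library, at 591, 641 and 597 CPM in Cre muscle and at 915, 793 and 798 CPM in floxed muscle (log2 difference -0.45, SE 0.32). It carried the dystrophin complex and laminin list, whose sum was 2677 to 2723 CPM in Cre muscle and 2925 to 3064 CPM in floxed muscle, although 9 of its 24 members had positive differences. Young knockouts had 538, 668 and 597 CPM of Dmd.

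Sign counts of further lists shifted when 1 library was left out. Nuclear genes of oxidative phosphorylation were positive for 44 of 45 members with a median of 0.20, and without Cre library 61 the count was 32 and the median 0.05. At 17 months 10 of the 45 were positive with a median of -0.14. In that library the list summed to 17403 CPM, against 13645 and 12248 CPM in the other Cre libraries and 13110, 12446 and 12529 CPM in floxed muscle. The oxygen-binding protein myoglobin, Mb, was at 2427 CPM in library 61 and at 807 and 847 CPM in the other Cre libraries, against 1352, 872 and 807 CPM in floxed muscle. All 29 cell cycle genes were positive with a median of 0.56. Without Cre library 93 the count was 14 and the median -0.014. At 17 months 24 of the 29 were positive with a median of 0.38. The proliferation marker Mki67 was at 8.39, 27.7 and 9.22 CPM in Cre muscle and at 5.34, 13.9 and 9.02 CPM in floxed muscle. Of 22 macrophage genes 18 were positive with a median of 0.26, and without library 93 the count was 6 and the median -0.19. At 17 months 19 of the 22 were positive with a median of 0.32. Their sum was 391, 732 and 346 CPM in Cre muscle and 378, 522 and 420 CPM in floxed muscle. Galectin 3 (Lgals3) was at 3.01, 20.6 and 6.35 CPM in Cre muscle and at 2.62, 3.17 and 2.99 CPM in floxed muscle. None of these genes was called.

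Fat cell genes were negative for 25 of 26 members with a median of -0.72, and without floxed library 92 they were negative for 7 and the median was 0.15. At 17 months 13 of the 26 were positive and the median was -0.0018. Ucp1, the uncoupling protein of brown fat, was at 0.210, 0.790 and 0 CPM in Cre muscle and at 0.215, 2.27 and 88.5 CPM in floxed muscle. Cidec, a lipid droplet protein, was at 7.55, 16.2 and 10.3 CPM in Cre muscle and at 6.13, 14.1 and 100.4 CPM in floxed muscle. The high values were all in library 92, where the fat list summed to 5258 CPM. It summed to 1703, 2347 and 2789 CPM in Cre muscle and to 3020 and 1575 CPM in the other floxed libraries. Extracellular matrix genes were negative for 36 of 40 members with a median of -0.15, and the median lay between -0.23 and -0.05 when each young library was left out in turn. At 17 months 27 of the 40 were positive with a median of 0.15. Tenascin C (Tnc), a matrix protein of tendon and injured muscle, was at 13.3, 12.7 and 25.6 CPM in Cre muscle and at 34.3, 39.7 and 24.1 CPM in floxed muscle. Tendon markers had 10 of 11 negative with a median of -0.45 at 2 months, and 9 of 11 with a median of -0.26 at 17 months. None was called. Immunoglobulin heavy chain Ighm was at 46.6, 52.9 and 47.7 CPM in Cre muscle and at 26.8, 32.9 and 26.3 CPM in floxed muscle, while the B cell surface genes Ms4a1 and Cd22 were at most 0.240 CPM in any of the 6.

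**Figure D5:**
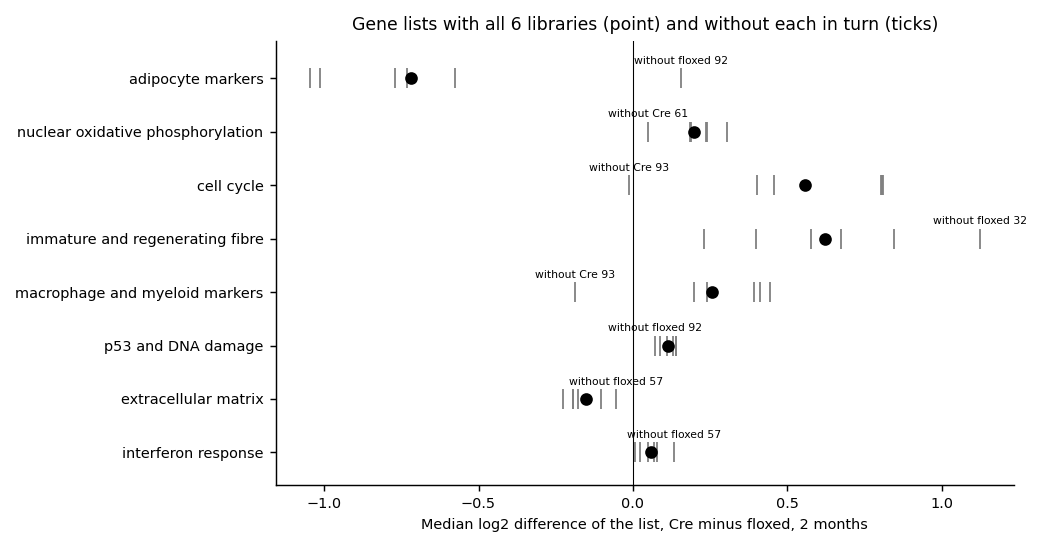
Median log2 difference, Cre minus floxed at 2 months, of 8 gene lists with all libraries (points) and without each young control library in turn (ticks), the label naming the library whose removal moves the median farthest. The fat, cell cycle and macrophage medians cross 0 when 1 library is left out, while the immature fibre, p53, matrix, oxidative phosphorylation and interferon medians keep their sign.

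Of 14 measured genes known to differ between laboratory strains none was called, 8 had positive differences, and the median was 0.06. Their sum was 307, 353 and 319 CPM in Cre muscle and 401, 375 and 373 CPM in floxed muscle, without overlap, and its main member was Ide, the insulin-degrading enzyme, at 126, 157 and 123 CPM in Cre muscle and 179, 177 and 175 CPM in floxed muscle. Pttg1, the securin gene, was at 1.75, 18.1 and 15.1 CPM in Cre muscle and at 1.54, 17.7 and 18.8 CPM in floxed muscle, so 1 library of each group was low. It was singled out after its values were seen. Nnt, the mitochondrial transhydrogenase gene that is partly deleted in C57BL/6J mice, was at 46.7, 40.8 and 46.8 CPM in Cre muscle and at 58.5, 44.2 and 61.4 CPM in floxed muscle. Young knockouts had 14.4, 20.8 and 16.7 CPM of Nnt, below all 6. In all, 629 of the 738 listed genes were measured, and 1 of them, Cd28, was called.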

How the data were processed

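Gene counts of 18 mouse quadriceps libraries were used, prepared from rRNA-depleted RNA by the ScriptSeq v2 kit, per the labels' protocols. The submitters' processing notes name STAR, HTSeq and DESeq2 without versions, and the builds GRCh38.p5 and GRCm38.p4. The sources used here give no strand settings. Raw count values, deposited by the authors, cover 15224 genes, none totalling under 67. A deposited signal column per library (its counts over a size factor) was left unused. Groups came from the labels. Here edgeR 4.0.16 in R 4.3.3 (limma 3.58.1) fitted 6 group means to all 18 libraries with TMM scaling and filterByExpr (minimum count 10, which removed none), 12 residual degrees of freedom, quasi-likelihood F-tests and Benjamini-Hochberg adjustment over all genes. An adjusted p under 0.05 is a call. CPM use the scaled library sizes. SE is the log2 difference over the square root of F. The code was tested on simulated data. DESeq2 1.42.0 and other settings were alternatives. Genes were placed by RefSeq on GRCm38.p6 (14722 placed). The knockout mean is nearer to a group by log2(CPM + 0.1). The comparison, gene lists and rules were chosen with earlier results of these data known. Named are the called genes except 1, 12 leading genes per direction, up to 3 per list by p, and a fixed set; members named beyond this were chosen after their values were seen. The excepted gene is not reported here.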

Additional observations from a re-analysis of the deposited data

How the results depend on the processing

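The number of genes called at 2 months was 2 and became 19 with DESeq2 (12 higher and 7 lower in Cre muscle, holding both), and 1 with a mean of at least 1 CPM, with Xist as a covariate, or with the compared groups alone. The filter at a mean of 1 CPM removed Cd28 and Sox12 before testing, so counts under it could not hold them at either age. The number at 2 months was 3 with the 12 control libraries alone (LOC102640133, Maats1 and Tnnt2, the last 2 higher in Cre muscle), where Cd28 was not called. It was 1 to 2 when each control library was left out in turn. At 17 months it was 2, and became 24 with DESeq2, 1 with a mean of at least 1 CPM, 1 with Xist as a covariate and 4 with the compared groups alone, and 1 to 7 when a library was left out, with 7 without floxed library 5. For the mean of both ages it was 20, and became 49 with DESeq2, which held all 20, 10 with a mean of at least 1 CPM, and 9 to 19 when a library was left out, the lowest without floxed library 57. For the difference between ages it was 0, and 1 with DESeq2. LOC102640133 was called at 2 months under all 18 settings. Of 150 named genes 19 were called at 2 months under at least 1 setting. Leaving out 1 young library, chosen after seeing the data, moved the medians of 4 of 8 lists by more than the spread between libraries. The fat list went between -1.05 and 0.15 (0.15 without floxed library 92), the cell cycle list between -0.014 (without Cre library 93) and 0.81, the immature fibre list between 0.23 and 1.12, and the p53 list between 0.071 and 0.14. The causes were not tested. No paired analysis was possible because no replicate number occurs in both groups. With 3 libraries a group, genes under about 0.9 CPM are limited by counting error.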
